A study of Mus musculus with 7 samples.

Results

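The miRNAs described here are the products of the miR-17-92 cluster and of its paralogs, the miR-106b-25 and miR-106a-363 clusters. The 10 members, named by their mature miRNAs, were mmu-miR-17, mmu-miR-18a, mmu-miR-19a, mmu-miR-19b, mmu-miR-20a, mmu-miR-92a, mmu-miR-106b, mmu-miR-93, mmu-miR-25 and mmu-miR-106a, where mmu stands for the mouse and is left out below. They were taken by name among the 696 mouse miRNAs of the arrays, of which 9 of the 10 were found, and miR-106a was not analysed here. Total RNA of whole kidneys from male C57BL/6 mice aged 9 to 12 weeks at purchase, collected 28 days after surgery, was measured with the dye Cy3 on 1-colour Agilent miRNA arrays. The series holds 3 arrays labelled treated (replicates 1, 3 and 4) and 4 labelled non-treated (replicates 1, 2, 3 and 4). The operations were ligation of the left ureter (unilateral ureteral obstruction, UUO, a model of kidney fibrosis) and a sham operation in which the ureter was exposed but not tied. The record does not say which label is which operation, and it marks the treated arrays with S and the non-treated arrays with C. For miRNAs in the study's table of changed miRNAs, the sign of treated minus non-treated was opposite to the sign the study gives for UUO over sham. All directions below are therefore given by deposited label and not by operation, and treated and non-treated arrays are those that carry these labels. The study describes its groups as mice, but no label ties an array to a mouse, so the p-values measure only the spread between these samples, which may be technical.

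A miRNA guides silencing complexes to messenger RNAs that pair with its seed, bases 2 to 8 from its 5′ end, and so miRNAs of 1 seed share many of their predicted targets. The miR-17-92 cluster is transcribed as a single precursor and is known for promoting cell growth and survival, with targets that include the apoptosis activator Bim and the cell cycle inhibitor p21. In the kidney the cluster is known for its part in nephron formation and in the growth of cysts, and miR-17, miR-20a and miR-18a are known to target components of TGF-beta signalling.

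The mature sequences are shown because the seeds define the groups compared below. All 10 members matched a mature entry of RefSeq (build GRCm38.p6), and the capitals mark the seed. The array uses names from before the arms were numbered, and the arm that each name stands for was set by hand. The miR-17 seed is carried by miR-17, miR-20a, miR-106a, miR-106b and miR-93, and by the companion miR-20b of the miR-106a-363 cluster:
miR-17: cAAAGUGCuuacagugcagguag
miR-20a: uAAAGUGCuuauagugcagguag
miR-106a: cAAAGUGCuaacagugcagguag
miR-106b: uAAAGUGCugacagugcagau
miR-93: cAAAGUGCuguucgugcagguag
miR-20b: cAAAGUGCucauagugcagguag

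The miR-18 seed differs from the miR-17 seed within the capitals, and among the members it is carried by miR-18a alone:
miR-18a: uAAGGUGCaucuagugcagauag

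The miR-19 seed is carried by miR-19a and miR-19b:
miR-19a: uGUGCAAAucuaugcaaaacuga
miR-19b: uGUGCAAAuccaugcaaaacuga

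Of the companions with the miR-25/92 seed, miR-92b and miR-363-3p were detected on no array and are not shown. The seed is carried by miR-25 and miR-92a, and by the companion miR-32, which lies outside the 3 clusters:
miR-25: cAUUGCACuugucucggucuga
miR-92a: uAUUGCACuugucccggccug
miR-32: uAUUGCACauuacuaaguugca

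The star strand miR-17*, from the other arm of the miR-17 hairpin, has a seed of its own and is shown because it was measured where miR-17 was not:
miR-17*: aCUGCAGUgagggcacuuguag

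Within a seed group the members differ at few bases. Counted from 1 at the 5′ end, miR-19a and miR-19b differ by U11C, miR-17 and miR-106a by U10A, and miR-17 and miR-20a by C1U and C12U. miR-20a and miR-106b differ by U10G, U12C and G20A over the 21 bases they share, outside the seed. miR-25 and miR-92a differ by C1U, U14C and U18C over 21 bases. Whether the probes separate such close sequences was not tested.

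In RefSeq the 6 hairpins of the miR-17-92 cluster lie within 836 bases on the plus strand, at chr14:115043671-115044506 (GRCm38.p6). The 3 hairpins of the miR-106b-25 cluster lie at chr5:138165321-138165818 on the minus strand, inside the span of Mcm7, a subunit of the helicase that opens DNA for replication. The 6 hairpins of the miR-106a-363 cluster lie at chrX:52741693-52742567 on the minus strand. miR-19b and miR-92a are each encoded at 2 loci, in the miR-17-92 and the miR-106a-363 clusters, so their signal cannot be assigned to either cluster.

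Each array held 13920 spots for 1937 probes, with a pair of probes for each member, printed 10 times each. Between 232 and 282 miRNAs were detected on the non-treated arrays and between 193 and 214 on the treated arrays. Over the 236 miRNAs tested, r was at least 0.990 between arrays of a label and at most 0.935 between arrays of different labels. Signals below are log2 transformed processed intensities summed over the probes of a miRNA and scaled by the average of the log2 signals of 186 miRNAs that every array detected. That average was, unscaled, 7.40, 7.52, 6.65 and 7.40 on the non-treated arrays and 6.05, 6.42 and 5.79 on the treated arrays. The groups did not overlap before scaling, so every change is relative to those miRNAs. The white blood cell and stromal marker miRNAs were lower on the treated arrays (5 of 5 past the threshold in each list). The log2 of their summed signals was 10.12 to 10.51 on the non-treated and 8.13 to 8.25 on the treated arrays for white blood cells, and 11.31 to 11.49 and 9.16 to 9.20 for stroma. Of 5 kidney tubule markers, 4 were tested, of which 3 were higher and 1 lower (10.67 to 10.94 on the non-treated and 12.43 to 12.46 on the treated arrays), and miR-215 was at the floor on every array. Both red blood cell markers on the array were higher (10.08 to 11.19 and 12.17 to 12.32), and neither of the 2 endothelial markers passed (10.79 to 10.93 and 10.80 to 10.89). Of 3 striated muscle markers, 1 was tested and did not pass (4.53 to 5.39 and 4.52 to 4.58). Fewer cells of a type and less RNA per cell cannot be told apart in whole kidneys, and the part of cell composition in the values below was not tested.

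Most members changed little, and those that passed the test were lower on the treated arrays, by less than 1.5-fold with the scaling used here. Of the 8 members tested, 3 were lower (miR-18a, miR-106b and miR-25), 0 were higher and 5 did not pass at an adjusted p below 0.01 (limma, Benjamini-Hochberg over 236 miRNAs). Among all 236 miRNAs, 30.9% were lower, 23.7% were higher and 54.7% passed in either direction. The share of members lower is close to that background, while the share passing in either direction is below it. For the count of 0 higher with limma, no member had a positive change with an unadjusted p below 0.05. The methods' t-test, run here with the same scaling and Benjamini-Hochberg adjustment, also gave 0. The count of members lower was 1 to 2 when an array was left out, 0 with quantile normalization or scaling by the 75th percentile of all miRNAs, and 8 with scaling by spike-in controls or with no scaling. The median log2 fold change was -0.12 over the members and -0.061 over all miRNAs tested. The groups did not overlap for 4 of 8 members, against 66.1% of all miRNAs in either direction and 36.0% with the treated group lower and 30.1% with it higher.

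**Figure D1:**
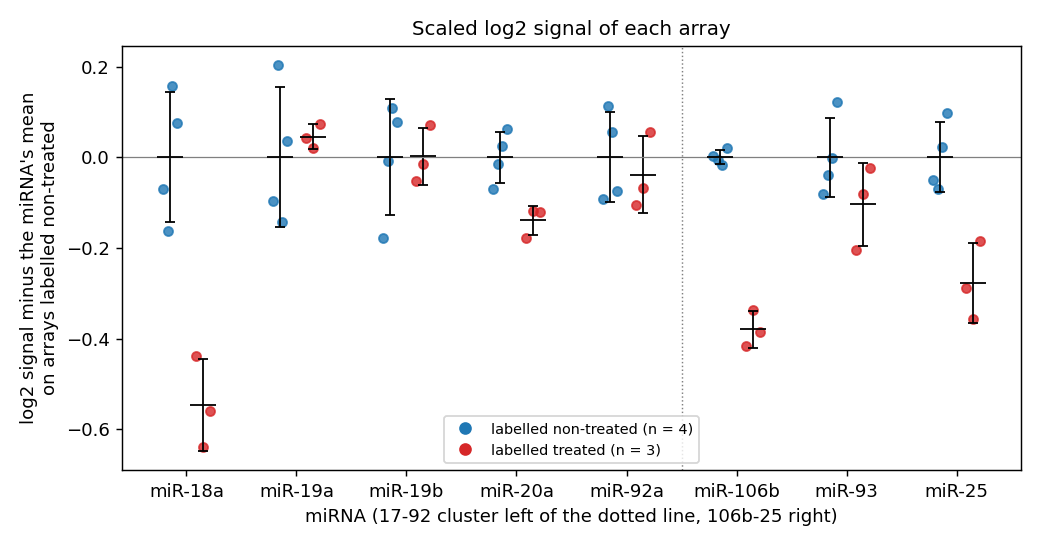
Scaled log2 signal of the 8 tested members on each array, minus the mean of that miRNA over the arrays labelled non-treated. Points are arrays, and black bars are the mean and SD of the 4 arrays labelled non-treated (blue) and the 3 labelled treated (red). miR-18a, miR-20a, miR-106b and miR-25 are lower on every treated array than on any non-treated array, whereas miR-19a, miR-19b, miR-92a and miR-93 overlap.

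In the miR-17 seed group, 1 of the 3 tested members passed as lower. miR-106b, the first miRNA of the miR-106b-25 cluster and known to target p21, had log2 signals of 7.77, 7.76, 7.75 and 7.78 on the non-treated arrays and of 7.35, 7.43 and 7.38 on the treated arrays. All 3 treated arrays lay below all 4 non-treated arrays, and the gap was far wider than the spread within either group. Its log2 fold change was -0.38 (SE 0.033, limma adjusted p = 7.97e-05), a signal 1.30-fold lower. The call held in every leave-one-out fit (-0.41 to -0.35) and was lost with scaling by the 75th percentile of all miRNAs (-0.13, adjusted p = 0.098), with quantile normalization (-0.18, adjusted p = 0.063) and in the deposited table without treated replicate 4 (-0.38, adjusted p = 0.089). That table holds only the first spot of each probe, not an average over its spots. Within the rows of the slide, which are a position and not a labelled batch, the difference was -0.42 in row 1 and -0.36 in row 2.

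miR-20a, which lies in the miR-17-92 cluster and shares the miR-106b seed, had log2 signals of 7.88, 7.93, 7.97 and 8.01 on the non-treated arrays and of 7.77, 7.83 and 7.82 on the treated arrays. The groups did not overlap, but they were separated by less than the range within the non-treated arrays. Its log2 fold change of -0.14 (SE 0.042) did not pass (limma adjusted p = 0.025) and its sign turned with scaling by the 75th percentile of all miRNAs (0.11). A difference within an array does not depend on a scaling factor, but it does change with quantile normalization. miR-20a minus miR-106b, relative to its mean on the non-treated arrays, was between 0.22 and 0.26 on the treated arrays and between -0.072 and 0.042 on the non-treated arrays. After quantile normalization its mean on the treated arrays fell from 0.24 to 0.041 and the groups overlapped. With the scaling used here, 16 of all 28 pairs of tested members did not overlap, so a lack of overlap is common among such differences.

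miR-93, encoded between miR-106b and miR-25 in the same cluster, had log2 signals of 6.44, 6.48, 6.52 and 6.64 on the non-treated arrays and of 6.32, 6.44 and 6.50 on the treated arrays. Only treated replicate 1 lay below all of the non-treated arrays. The log2 fold change was -0.10 (SE 0.066, limma adjusted p = 0.21), with a 95% interval from -0.26 to 0.057.

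miR-17, the namesake of the cluster, was at the floor of 6.71 (2.75 in log2) on all 7 arrays and was not tested. Agilent's software called it detected on 2 of 4 non-treated and 0 of 3 treated arrays. The unscaled summed signals were 3.17, 5.70, 3.14 and 3.93 on the former and 1.14, 1.78 and 0.72 on the latter. No fold change is given, since both groups are at the floor, and these signals do not show whether miR-17 is absent from the kidney.

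The star strand miR-17* was detected on all 7 arrays. Its log2 signals were 3.92, 4.07, 4.42 and 3.94 on the non-treated arrays and 3.28, 3.60 and 3.41 on the treated arrays, with no overlap. The log2 fold change was -0.66 (SE 0.144, limma adjusted p = 0.0068). The call was lost in 6 of 7 leave-one-out fits (-0.74 to -0.57 over all 7). With normexp background correction the log2 fold change was 0.015. That correction added an offset of 50 to every spot, which shrinks the changes of low signals. The value with normexp therefore cannot show whether the change of miR-17* holds.

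miR-18a, which differs from the miR-17 group in its seed and is known to target the matrix regulator Ctgf, had log2 signals of 4.41, 4.31, 4.63 and 4.55 on the non-treated arrays and of 4.04, 3.83 and 3.91 on the treated arrays. Every treated array was lower than every non-treated one. The log2 fold change of -0.55 (SE 0.092, limma adjusted p = 0.0020), or 1.46-fold lower, had the greatest size among the members tested. Its call was lost without treated replicate 4 (-0.51, adjusted p = 0.012) and, among other settings, with quantile normalization (-0.34, adjusted p = 0.029). With normexp, whose offset of 50 shrinks the change of so low a signal, the log2 fold change was 0.022. Of its 2 probes, 1 lay at the probe floor on all arrays after scaling, and that probe supplied 22.8% to 29.7% of the summed signal. The change was larger with Agilent's summed signal (-0.93, adjusted p = 0.00017) and in the deposited table without treated replicate 4 (-1.94, SE 1.10, adjusted p = 0.18).

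Neither member of the miR-19 group passed. miR-19a had log2 signals of 6.17, 6.47, 6.12 and 6.30 on the non-treated arrays and of 6.31, 6.28 and 6.34 on the treated arrays, the treated arrays lying within the non-treated range. Its log2 fold change was 0.045 (SE 0.087, limma adjusted p = 0.68, 95% interval -0.17 to 0.26). For miR-19b the log2 signals were 8.96, 9.14, 9.25 and 9.22 on the non-treated arrays and 9.09, 9.13 and 9.21 on the treated arrays. Here too the treated arrays fell within the range of the others, with a log2 fold change of 0.0016 (SE 0.078, limma adjusted p = 1, 95% interval -0.19 to 0.19). Both signs turned under other scalings.

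In the miR-25/92 group, miR-25 passed as lower and miR-92a did not pass. miR-25, of the miR-106b-25 cluster, had log2 signals of 7.33, 7.31, 7.40 and 7.48 on the non-treated arrays and of 7.09, 7.02 and 7.20 on the treated arrays. All treated arrays lay below the non-treated arrays, and the log2 fold change was -0.28 (SE 0.062, limma adjusted p = 0.0071), or 1.21-fold lower. This call is close to the threshold and was lost in all 7 leave-one-out fits (adjusted p 0.010 to 0.028), with log2 fold changes of -0.30 to -0.24. miR-92a, of the other 2 clusters and known as an inhibitor of blood vessel growth, had log2 signals of 8.10, 8.31, 8.25 and 8.12 on the non-treated arrays and of 8.09, 8.13 and 8.25 on the treated arrays. Its groups overlapped, with a log2 fold change of -0.039 (SE 0.070, limma adjusted p = 0.66, 95% interval -0.21 to 0.13). miR-92a minus miR-25 within an array was 0.24 here and -0.067 after quantile normalization, which gave -0.12 for miR-92a and -0.054 for miR-25, with neither past the threshold.

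**Figure D2:**
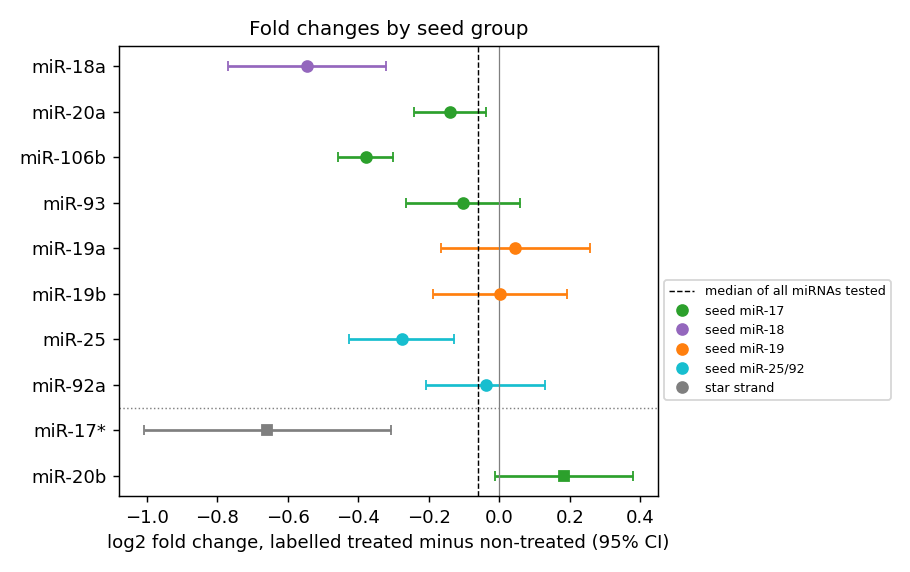
Log2 fold change of each member (circles) and of the companions miR-17* and miR-20b (squares), labelled treated minus labelled non-treated, with 95% confidence intervals from limma. Colours mark the seed and the dashed line is the median of all 236 miRNAs tested (-0.061). The intervals of miR-18a, miR-20a, miR-106b, miR-25 and miR-17* lie below 0, while those of miR-93, miR-19a, miR-19b, miR-92a and miR-20b include 0.

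Grouped by seed, the median log2 fold change was -0.14 for the 3 tested members of the miR-17 group, -0.55 for miR-18a, 0.024 for the miR-19 group and -0.16 for the miR-25/92 group. Grouped by cluster, it was -0.28 for the 3 members of miR-106b-25 and -0.039 for the 5 tested members of miR-17-92, with miR-19b and miR-92a counted there although they are also encoded in the miR-106a-363 cluster. Without these it was -0.14 for the remaining 3. The miR-106a-363 cluster had no tested member of its own, but its miR-20b was tested as a companion and did not pass (log2 fold change 0.18, limma adjusted p = 0.086). miR-20b carries the miR-17 seed and is not part of the median of that seed group. The mean of miR-106b-25 minus the mean of miR-17-92, taken within each array and relative to the non-treated mean, was 0.058, -0.064, -0.039 and 0.045 on the non-treated arrays. It was -0.16, -0.094 and -0.10 on the treated arrays, below all 4, with a mean of -0.12 (SD 0.035, n = 3, against SD 0.061, n = 4). No p is given, since the members were chosen with results known. Without miR-19b and miR-92a the difference was -0.11, -0.012 and 0.0044 on the treated arrays, with a mean of -0.040 (SD 0.063, n = 3), and the groups overlapped. The order of the clusters was not stable to processing either. It reversed under quantile normalization (0.046) and in the deposited table without treated replicate 4 (0.12), which holds only the first spot of each probe. With Agilent's own summed signal the order held, but the difference was smaller (-0.032).

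Neighbours in the miR-106b-25 precursor were set against each other within each array, relative to the mean of the non-treated arrays, with no test. miR-106b minus miR-93 was between -0.36 and -0.21 on the treated arrays and between -0.10 and 0.082 on the non-treated arrays. miR-93 minus miR-25 was between 0.085 and 0.28 against -0.029 and 0.031, with no overlap, whereas miR-106b minus miR-25 overlapped (-0.20 to 0.022 against -0.079 to 0.065). After quantile normalization all 3 of these differences overlapped between the labels. Before it, 16 of all 28 pairs of tested members had no overlap, so its absence does not set these neighbours apart.

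The probes of a member moved in 1 direction for 6 of the 7 members with both probes above the probe floor on some array. For miR-106b, the probes gave log2 fold changes of -0.32 (limma adjusted p = 0.0012) and -0.54 (limma adjusted p = 0.019). For miR-25 they gave -0.28 and -0.26, and neither passed alone (limma adjusted p = 0.015 and 0.065). Among all 528 probes tested, 32.6% passed and 16.9% passed as lower. These include probes at the probe floor on all arrays, such as 1 of miR-18a, which cannot pass and lower both shares. The probe of miR-18a that was above the floor passed (-0.51, limma adjusted p = 0.0092). The probes of miR-20a gave -0.13 and -0.16, those of miR-93 -0.096 and -0.075, those of miR-92a -0.034 and -0.076, and those of miR-19a 0.019 and 0.10, with no probe of these past the threshold. The miR-93 probe with -0.075 was at the probe floor on treated replicates 1 and 4, so the floor limits the size of its change. The exception in direction was miR-19b, with 0.019 and -0.11.

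Without any scaling, all 8 tested members had less signal on the treated arrays, by -1.11 to -1.70 on the log2 scale, while the median of all miRNAs tested fell by 1.20. The summed raw signal of miR-106b, for example, was 342, 370, 201 and 347 on the non-treated arrays and 100.2, 138 and 85.6 on the treated arrays. Non-treated replicate 3 was the lowest of its group for miR-106b and lay above every treated array. The mean log2 signal of 4 spike-in controls was 10.83, 10.76, 10.36 and 10.79 on the non-treated and 10.49, 10.76 and 10.21 on the treated arrays. The spike-ins thus overlapped between the labels where the members did not. Neither did the unscaled average of the 186 miRNAs that every array detected, so this is not particular to the members. Over all miRNAs, the calls were 56 higher and 73 lower here, 18 and 166 with scaling by spike-ins, 7 and 162 with no scaling, 73 and 46 with the 75th percentile of all miRNAs, and 63 and 58 with quantile normalization. What sets the total signal of an array was not tested, and a change of each member is stated relative to the other miRNAs only.

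**Figure D3:**
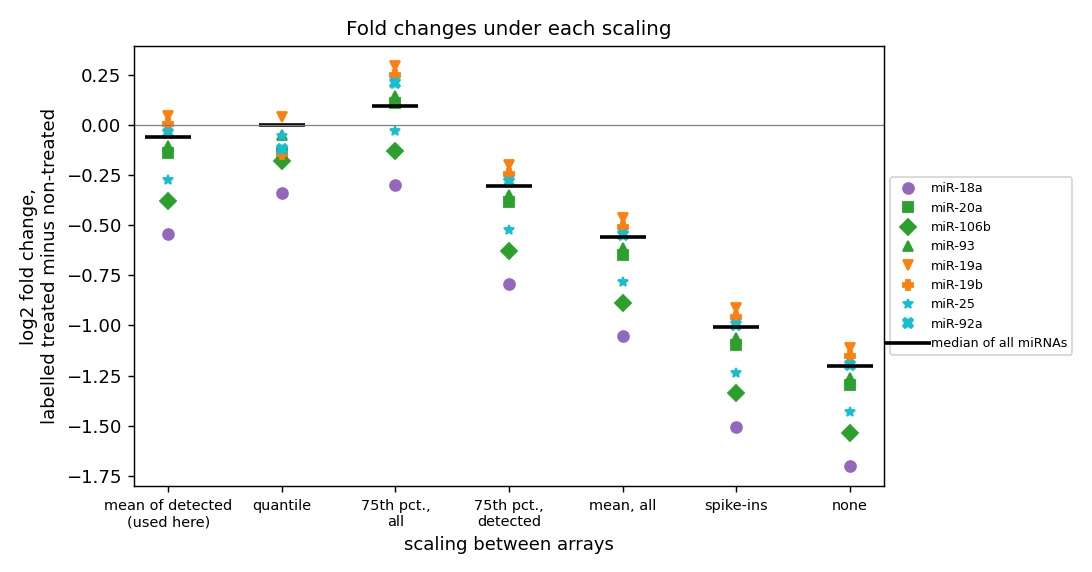
Log2 fold change of the 8 tested members (labelled treated minus non-treated) under 7 ways of scaling the arrays, with the median of all miRNAs tested as black bars. The members shift together with the median of all miRNAs, from 0.092 with the 75th percentile of all miRNAs to -1.20 with no scaling. miR-18a and miR-106b lie below the median under all 7, and miR-19a lies above it under all 7. Except with quantile normalization, and apart from values at the floor, a scaling moves all miRNAs of an array equally. These positions are therefore nearly fixed in advance and do not show that the changes are robust.

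Of 16 companions listed (the other miRNAs of the clusters and seed families, and the star strands), 14 were on the array, 3 were tested and 9 were detected on no array. miR-20b, which differs from miR-20a by U1C and U10C and is encoded in the miR-106a-363 cluster, had log2 signals of 6.40, 6.67, 6.61 and 6.65 on the non-treated arrays and of 6.67, 6.84 and 6.80 on the treated arrays. Its groups overlapped, and the log2 fold change of 0.18 (SE 0.081) did not pass (limma adjusted p = 0.086). miR-32 was at the floor on all 4 arrays labelled non-treated and had log2 signals of 3.69, 3.84 and 3.69 on the treated arrays. It was detected on 2 of 4 non-treated and 3 of 3 treated arrays and entered the test only through the treated arrays, and the floor fixed its non-treated values. Its count as higher is therefore set by the filter and the floor, and no fold change is given.

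Outside the members and companions, the 3 miRNAs closest to the mean profile of the tested members over 7 arrays, out of 225 candidates, were miR-340-5p, miR-375 and miR-1944. Likeness was measured as the root mean square difference of log2 signals after centring each miRNA on its own mean. It was 0.046 for miR-340-5p, 0.069 for miR-375 and 0.070 for miR-1944. Among the members, miR-20a was closest to that mean profile, of which it is a part, at 0.029, and miR-18a was farthest at 0.21. The log2 fold changes were -0.16 for miR-340-5p (limma adjusted p = 0.027), -0.22 for miR-375 (limma adjusted p = 0.058) and -0.29 for miR-1944 (limma adjusted p = 0.0081). miR-375 was at the floor on all 3 treated arrays and on non-treated replicate 1, so its likeness and its change are set by the floor, and the change was -0.39 without treated replicate 4 and -0.29 (limma adjusted p = 0.00093) without non-treated replicate 1.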

How the data were processed

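Per the labels, kidney RNA was measured on 7 1-colour Agilent miRNA arrays, on 1 slide read in 1 scan. The authors ran Agilent Feature Extraction 10.7.3.1 and deposited its files, where the processed intensity of a spot has its background subtracted and is not normalized between arrays. The deposited array files were used. A deposited table of processed intensities holds, for treated replicate 4, the error estimate of the intensity instead, so it served only as an alternative without that array. On every other array its values equalled the first spot of the probe for 100% of 1937 probes. It therefore lacks the averaging over spots used here, as well as treated replicate 4. What each of these does to its results was not tested. No spot was saturated. Precision is limited by the number of arrays, and there is no depth in reads.

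Processed signals were averaged per probe without outlier and control spots, summed per miRNA, scaled by the average log2 signal of 186 miRNAs that all arrays detected, raised to a floor of 6.71 (the highest, over arrays, of the lowest scaled signal of a detected miRNA) and log2 transformed. limma 3.58.1 in R 4.3.3 compared labelled treated with labelled non-treated over the 236 miRNAs that Agilent's flags called detected throughout either label group. The study's methods name a t-test at p below 0.01, and a figure legend a Bonferroni adjusted p below 0.01. Here the threshold was a Benjamini-Hochberg adjusted p below 0.01. Probes were fitted the same way. The steps were tested on simulated data. The members and lists were chosen with earlier results of these data known. Named are all members, companions detected on every array of a group, and the 3 miRNAs closest to the members' mean profile. Marker lists are white blood cells, red blood cells, stroma, kidney tubule, endothelium and striated muscle.

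Sequences and loci are those of RefSeq GRCm38.p6. Alternatives were other scalings, signal columns, background corrections, probe summaries, filters, floors, tests and thresholds, a block for the replicate number, and fits without single arrays. A block for the slide row, group values with miR-17 kept or without miR-19b and miR-92a, and differences between members after quantile normalization were added after seeing the data.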

Additional observations from a re-analysis of the deposited data

Results flagged for a closer look

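Before scaling, the average log2 signal of the 186 miRNAs that all arrays detected was 6.65 on non-treated replicate 3, far below the remaining non-treated arrays (7.40, 7.52 and 7.40). Its gap to the nearest of them was 0.859 of the range of the group, above Dixon's critical value for 4 samples. Chance marks about 5% of groups, and 1 of the 10 groups examined was marked. Without this array, miR-106b (-0.41) and miR-18a (-0.52) passed the threshold and miR-25 (-0.29, limma adjusted p = 0.014) did not.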

How the results depend on the processing

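Of the values compared between settings, miR-106b kept its call in 17 of 20 settings and in all 7 fits without 1 array, and miR-25 lost its call in 12 of 20 and in all 7. miR-18a kept its call in 12 of 19 settings and in 6 of 7 fits, lost it in 6 settings and changed sign in 1. With a floor 4 times higher miR-18a lay at the floor on every array and was not compared. These settings are not equally strict. A threshold of 0.05 cannot lose a call, and with spike-ins or no scaling all 8 tested members were called lower. The count of members lower (3) was 5 when arrays were scaled by the 75th percentile of detected miRNAs, 7 by the mean of all, 8 with spike-ins and 8 with no scaling. It was 0 for the 75th percentile over all, 0 with quantile normalization, 0 in the deposited table without treated replicate 4, and 1 with no filter, a floor 4 times higher or Bonferroni adjustment. The causes of these differences were not tested.

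In that order of scalings (75th percentile detected, mean of all, spike-ins, none, 75th percentile of all), the median log2 fold change was -0.39, -0.65, -1.10, -1.30 and 0.11 for the miR-17 seed, -0.22, -0.49, -0.93, -1.13 and 0.27 for miR-19, and -0.40, -0.67, -1.12, -1.31 and 0.090 for miR-25/92. It was -0.29, -0.55, -1.0, -1.19 and 0.21 for the miR-17-92 cluster and -0.52, -0.79, -1.24, -1.43 and -0.029 for miR-106b-25. With the first 4 of these scalings, miR-19a turned to -0.20, -0.46, -0.91 and -1.11, miR-19b to -0.25, -0.51, -0.96 and -1.15, and miR-20b to -0.063, -0.32, -0.77 and -0.97. With the last, miR-20a turned to 0.11, miR-92a to 0.21, miR-93 to 0.14 and miR-340-5p to 0.086. Quantile normalization gave -0.087 for the miR-25/92 seed, -0.14 for miR-17-92, -0.054 for miR-106b-25 and 0.046 for the cluster difference, and turned miR-19b to -0.14 and miR-340-5p to 0.079. All calls over the array were 50 higher and 95 lower with the 75th percentile detected and 36 and 121 with the mean of all.

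normexp gave -0.33 for the miR-17 seed, -0.17 for miR-19, -0.30 for miR-25/92, -0.31 for miR-17-92 and -0.041 for the cluster difference. It turned miR-18a to 0.022, miR-19b to -0.41, miR-17* to 0.015, miR-340-5p to 0.034, miR-375 to 0.0027 and miR-1944 to 0.046. The offset of 50 used with normexp shrinks the changes of low signals. The cluster difference was also -0.032 with Agilent's summed signal, 0.12 in the deposited table, -0.17 with the mean of log2 probe signals and -0.23 with the higher floor. Without miR-19b and miR-92a in miR-17-92, the cluster's median was -0.14 and the cluster difference -0.040. The deposited table turned miR-19b to -0.029, miR-92a to 0.052 and miR-340-5p to 0.16. Agilent's summed signal turned miR-92a to 0.0063, the mean of log2 probe signals turned miR-19b to -0.047, the slide row as a block turned it to -0.022, and 1 of its probes alone gave -0.11.

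Of the companions, 1 was counted as higher (miR-32, whose count the floor sets) and 1 as lower (miR-17*). The count higher was 0 with spike-ins, no scaling, the higher floor, Agilent's summed signal, normexp, the mean of log2 probe signals and the filter to every array. The count lower was 2 with spike-ins and no scaling, and 0 with the 75th percentile of all, quantile normalization, the deposited table, no filter, the higher floor, Bonferroni adjustment, normexp and the methods' t-test.

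Leaving out each array in turn gave 1 to 2 members lower, 0 to 1 companions lower, cluster differences of -0.14 to -0.098, and values of -0.026 to 0.11 for miR-19a and -0.058 to 0.028 for miR-19b. With the replicate number as a block, over numbers 1, 3 and 4, 1 member was lower and miR-19b turned to -0.00085. Deviations from the group means of arrays with the same number had r of -0.055, -0.034 and 0.18, so the numbers were not taken as pairs. All calls over the array fell from 129 to 94 with the block and to 59 with normexp, 77 with the higher floor and 65 with Bonferroni adjustment, and were 184 with spike-ins. Signal over background limits miR-17 and 9 companions detected on no array, for which no change can be read.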
